A study of Rattus norvegicus with 132 samples.

Results

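Glomeruli of RM rats were compared with glomeruli of Sham rats by spatial transcriptomics of kidney sections. The regions of interest (ROIs) were found by the group and area given in the sample titles. There were 9 glomerular ROIs labelled RM and 9 labelled Sham among 132 ROIs in all. The RM ROIs lay in 8 wells of plate C and 1 well of plate A, and the Sham ROIs in 6 wells of plate C and 3 wells of plate E. The plate A ROI was kept out of the comparison because it was the lone ROI of its plate, which left 8 RM and 9 Sham ROIs.

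The series profiled formalin-fixed, paraffin-embedded kidney sections of rats (Rattus norvegicus) in a study of acute kidney injury after trauma. Its groups were Sham, RM, HS and RM-HS, with 3 rats per group, and ROIs were placed by hand in glomeruli, cortex, corticomedullary junction and medulla. The GeoMx platform hybridises barcoded probes to the section, releases the barcodes of a chosen region with light and counts them by sequencing. Neither RM nor HS is spelled out in the sources used here, which give no strain, age, dose or time after injury. The same sources do not say which ROI came from which rat. With 8 or 9 ROIs from 3 rats some ROIs share an animal, and every p-value over ROIs given here is therefore too small. Consecutive wells formed 3 runs per group (3, 3 and 2 RM ROIs, and 3 ROIs in each Sham run), and no label states that a run is an animal. The probes were those of the mouse whole transcriptome, so gene symbols are those of the mouse and a low signal can also mean a poor match between probe and rat transcript.

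The glomerulus filters blood through fenestrated endothelium, a basement membrane made largely of type IV collagen and laminin, and the interlocking foot processes of podocytes. Mesangial cells hold the capillary loops together. Podocytes make vascular endothelial growth factor, which the endothelium reads through receptors that include Flt1. Stressed cells of many kinds switch on immediate early genes within a short time, followed by heat shock, metallothionein and other protective genes, and secrete matricellular proteins such as thrombospondin 1.

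Signal was normalized by the authors to the 75th percentile of each ROI. Recovered reads per ROI ran from 88068 to 209188 in RM (median 147744) and from 75495 to 130262 in the Sham ROIs of plate C (median 100458), a difference that had p = 0.0826 in a two-sided exact permutation test (3003 splits of 8 and 6 ROIs). The plate E Sham ROIs held 17894, 20345 and 41933 reads and had 1787 to 4792 genes at more than 2 times the negative probe, the assay's measure of background, against 5482 to 6926 in the plate C Sham ROIs and 5803 to 7615 in RM. Their 75th percentile stood at 2, 3 and 5 reads in the same order, and their lowest values were 1 read. In these ROIs a signal of 19.4 or 29.1 is a single read. The negative probe itself had a median of 16.6 in RM and 16.7 in plate C Sham (exact permutation p = 0.905). As a check of the area label, 16 of 22 podocyte markers and 11 of 20 glomerular endothelial markers were higher in plate C Sham glomeruli than in the 3 other areas, among them the dendrin gene Ddn (140.1 ± 34.1 in glomeruli and 61.6 ± 5.95 in cortex, SD, n = 6 each) and Sema3g (480 ± 166 and 57.4 ± 22.5). In contrast, 0 of 19 proximal tubule markers and 0 of 12 markers of the later tubule were highest there. The glomerular label was less clear for other markers: 5 of 15 mesangial and smooth muscle markers and 0 of 9 parietal epithelial markers peaked in glomeruli, the endothelial gene Tie1 was over 2 times the negative probe in 0 of 6 Sham ROIs, and Flt1 stood at 45.1 ± 16.3 in Sham glomeruli against 45.4 ± 4.26 in cortex. Because an ROI pools all cells in it, more RNA per cell and more cells of a type cannot be told apart.

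The first question was which genes differed between RM and Sham glomeruli. The genes with more transcript in RM glomeruli included Thbs1 and Spp1, which encode secreted proteins, the metallothionein gene Mt2, the early response genes Zfp36 and Junb, the stress genes Gadd45a and Atf4, and the endothelial receptor gene Flt1. In no gene list described here were most of the tested members called, and the list with the highest share had 8 of 21. Differences are given on the log2(signal + 1) scale ± SE from limma, with a term for the plate, so that the estimate rests on the 8 RM and the 6 Sham ROIs of plate C, and a gene was called when its Benjamini-Hochberg adjusted p over 9230 genes was below 0.05. By this rule 102 genes (1.11%) were called, of which 100 (1.08%) rose and 2 (0.0217%) fell, while the median gene differed by 0.02. The rises ran from 0.80 to 2.72 (median 1.22). In 73 of the 100 risers every RM ROI was above every plate C Sham ROI, a pattern that held in 141 (1.53%) of all genes, and 98 had all 8 RM ROIs above the Sham mean. The risers were called on these same ROIs, so these counts describe them and add no support. When each well run was reduced to 1 mean, leaving 3 RM and 3 Sham values, 0 genes were called by limma. An unadjusted p below 0.05 was found for 273 of the 9230 genes, a share below the 0.05 that chance alone gives. Because of the plate term, the RM minus Sham difference in this fit rested on the run means of plate C. Sham 3, the lone Sham run of plate E, did not enter it. Leaving out the ROIs of 1 run left 35 calls without RM 1 and 35 without RM 2, but 22 without Sham 1 and 65 without Sham 2. The 15 genes called in all 6 such fits and in 21 of 22 alternatives, all but the run means, were Atf4, Cemip2, Clu, Gadd45a, Gm13889, Ier3, Junb, Mt2, Rnd1, Spp1, Sqstm1, Stat3, Thbs1, Zfand2a and Zfp36.

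Calls gathered among genes of high signal. With genes cut into 10 equal classes by mean level, 74 of the 102 calls lay in the top class of 923 genes, where the median difference over the whole class was 0.32, against 0.01 in the lowest class. Quantile normalization, which gives all ROIs the same distribution, brought the top class's median to 0.13 and called 81 rises and 15 falls, of which 74 were among the 102. What sets this dependence on level was not tested.

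**Figure D1:**
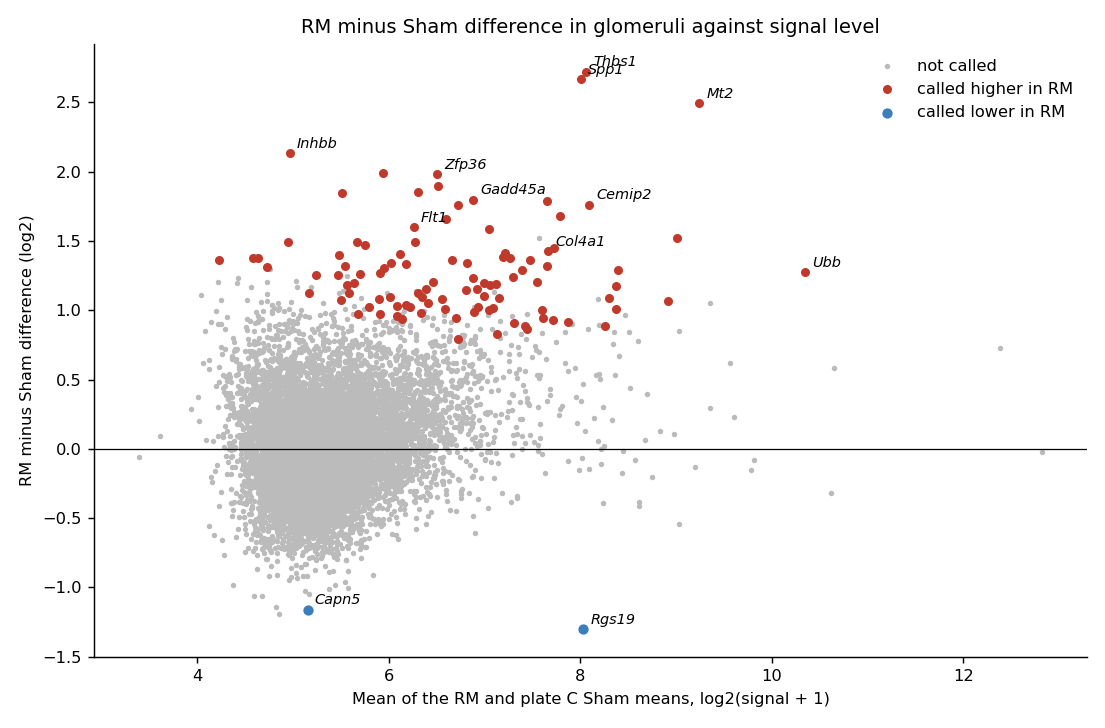
Each point is a gene, with the mean of its RM and plate C Sham means on the horizontal axis (log2 of signal + 1) and its RM minus Sham difference from limma on the vertical axis (log2). The 100 called rises are red, the 2 called falls blue, and the called rises lie mostly toward the right, where 74 of 102 calls are in the highest of 10 classes by level.

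Secreted and matricellular genes held the largest rises. Thbs1, which encodes thrombospondin 1, a secreted protein that activates latent TGF-beta and inhibits angiogenesis, ranged from 450.1 to 1215 in RM (median 651) and from 58.2 to 174 in plate C Sham (median 114), and the plate E Sham ROIs read 93.1, 145 and 174. No Sham ROI of either plate reached the RM range. The rise was 2.72 ± 0.34 (limma, adjusted p = 1.98e-07), with run means of 9.17, 9.82 and 9.20 in RM and 6.02, 7.38 and 7.07 in Sham on the log2 scale. Spp1, osteopontin, a secreted phosphoprotein, ranged from 492.6 to 943 in RM (median 646) and from 64.0 to 215 in plate C Sham (median 96.6), with 155, 163 and 291 on plate E. All RM ROIs were again above all Sham ROIs, and the rise was 2.67 ± 0.38 (adjusted p = 3.74e-06). Ccn2, connective tissue growth factor, rose by 1.99 ± 0.39 (adjusted p = 0.00126) from 32.7 ± 13.7 (SD, n = 6) to 128 ± 47.8 (SD, n = 8). Its call was lost without RM 1 and without Sham 1. Adamts9, a secreted metalloproteinase, rose by 1.68 ± 0.32 and Cemip2, a hyaluronan-degrading surface enzyme, by 1.76 ± 0.26. The Adamts9 call was lost without RM 2 and without Sham 1, where its difference was 0.92.

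Of 15 matricellular and ADAMTS genes tested (25 in the list), these 5 rose and none fell, with a median of 0.73 against 0.02 over all genes. Not called were Timp3 (0.97, adjusted p = 0.20), Timp1 (0.73), Fn1 (0.38) and Thbs2, the close relative of Thbs1, at -0.58. Inhbb, the beta B subunit of activin and inhibin, was among the 15 largest rises at 2.13 ± 0.38 (adjusted p = 0.00021), from 17.5 ± 12.6 (SD, n = 6), the level of the negative probe, to 67.3 ± 20.0 (SD, n = 8). It was called in 19 of 22 alternatives. In the TGF-beta and BMP list 0 of 26 genes were called by limma (median 0.26), and the lowest p-values were those of Smad5 (1.05, adjusted p = 0.064) and Gdf15 (0.84, adjusted p = 0.227).

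**Figure D2:**
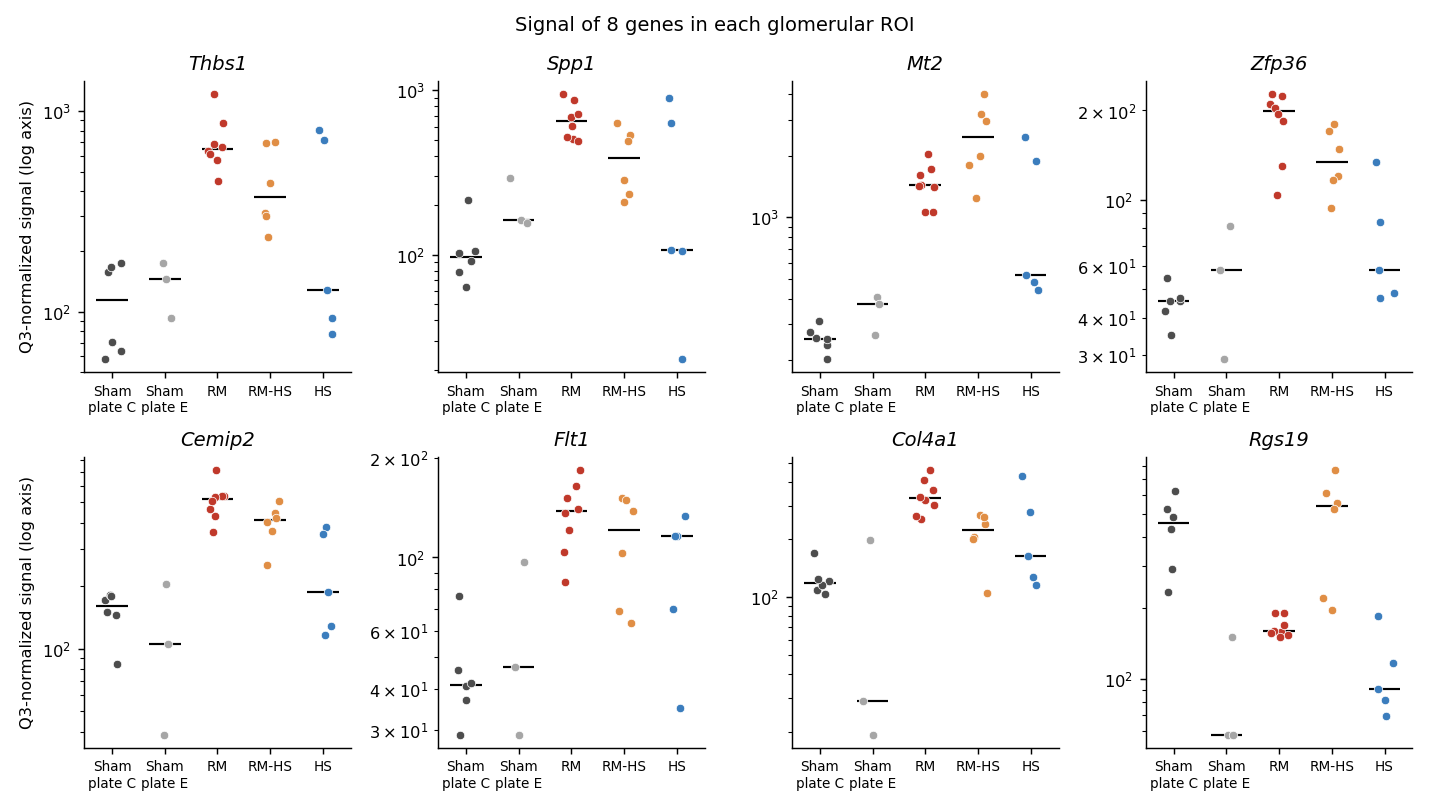
Each point is a glomerular ROI and each bar a median, with Q3-normalized signal on a log axis that differs by gene, for Sham on plate C (6 ROIs), Sham on plate E (3), RM (8), RM-HS (6) and HS (5, all on plate E). The RM ROIs of Thbs1, Spp1, Mt2, Zfp36, Cemip2, Flt1 and Col4a1 lie above every plate C Sham ROI, while those of Rgs19 lie below them and near the plate E Sham ROI at 151.

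The endothelium was represented by Flt1 and Cemip2. Flt1, the VEGF receptor 1, ranged from 84.01 to 184 in RM (median 139) and from 29.1 to 76.3 in plate C Sham (median 41.1). The plate E Sham ROIs read 29.1, 46.5 and 96.9, so that 1 of them fell within the RM range. Flt1 rose by 1.60 ± 0.28 (adjusted p = 0.000209) and kept its call in 20 of 22 alternatives. Cemip2 ranged from 363 to 715 in RM (median 517) and from 84.6 to 180 in plate C Sham (median 160), with 38.8, 105 and 204 on plate E, and no Sham ROI reached the RM range. Of 20 glomerular endothelial markers tested (35 in the list) these 2 rose and none fell (median 0.28). Differences were above 0 in 14 of the 20, and the lowest was -0.61. Sema3g, a secreted semaphorin with high signal in these glomeruli, had all 8 RM ROIs (749.6 to 1256) above all 6 plate C Sham ROIs (268 to 723) and an adjusted p of 0.083 at 1.05 ± 0.31. In the VEGF and angiopoietin list Flt1 was the lone call of 19 genes, and the median was 0.05. Of the 19, 10 were above 0, and the lowest was -0.36. Among those above 0, the Flt1 ligand gene Vegfa differed by 0.72 (adjusted p = 0.39) and the co-receptor gene Nrp1 by 0.56. The junctional phosphatase gene Ptprb differed by 0.66 and the Notch ligand gene Dll4 by 0.63, and none of these 4 was called.

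The 250 bases before the Flt1 start site in RefSeq (chr12:12333180-12333429, plus strand, rat build GRCr8) are shown because Flt1 was called both here and in the comparison of areas. They hold 1 palindromic cyclic AMP response element (letters TGACGTCA, both strands searched), in capitals. Such a match was found upstream of 2.91% of 7022 tested genes with a promoter in that table. It was found upstream of 5 of the 82 risers with a promoter there (6.10%), among them Irf2bpl, the other gene called in both comparisons.
Flt1: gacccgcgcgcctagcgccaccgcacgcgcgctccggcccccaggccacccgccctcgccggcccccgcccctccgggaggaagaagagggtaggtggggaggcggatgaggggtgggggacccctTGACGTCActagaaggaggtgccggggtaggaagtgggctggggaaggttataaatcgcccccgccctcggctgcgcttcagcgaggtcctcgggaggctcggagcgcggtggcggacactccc

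Podocyte genes mostly had differences above 0 but were rarely called. Of 22 podocyte markers tested 1 rose and 0 fell (median 0.38, 18 of 22 above 0), and the call was lost in 5 of the 6 fits that left out a well run. Actn4 (0.80, adjusted p = 0.18), Wt1 (0.73), Synpo (0.68) and Clic5 (0.92) were not called, nor was Lmx1b (-0.21).

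Basement membrane and adhesion genes gave 3 calls of 28 tested, with a median of 0.26. Col4a1, a chain of type IV collagen, ranged from 255 to 459 in RM (median 327) and from 105 to 170.3 in plate C Sham (median 119), and the plate E Sham ROIs read 19.4, 29.1 and 198. The plate E values of 19.4 and 29.1 were single reads. All RM ROIs exceeded all Sham ROIs, and the Col4a1 rise was 1.43 ± 0.30 (adjusted p = 0.00251). Its call was lost with the negative probe subtracted, without RM 2, without Sham 1 and without Sham 2. Ilk, integrin-linked kinase, rose by 1.19 ± 0.29 and Itga3, the laminin-binding integrin chain of podocytes, by 0.98 ± 0.24, with calls kept in 17 and 15 of 22 alternatives. Its partner Itgb1 differed by 0.96 (adjusted p = 0.082). The collagen chain gene Col4a2, which lies next to Col4a1 and shares its promoter region, differed by -0.49 (adjusted p = 0.80), but its probe was hardly above background, with 19.5 ± 10.2 in RM (SD, n = 8), 25.3 ± 11.02 in plate C Sham (SD, n = 6) and over 2 times the negative probe in 25% of glomerular ROIs. The chain genes Col4a3 and Col4a4 differed by 0.08 and 0.23.

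Actin cytoskeleton genes had a median of 0.80, and 27 of 31 were above 0. The 6 that rose were Lmna (1.40 ± 0.33), which encodes the nuclear lamins A and C, S100a11 (1.38 ± 0.34), the myosin light chain gene Myl12a (1.34 ± 0.36), the profilin gene Pfn1 (1.19 ± 0.29), Tpm3 (1.12 ± 0.28) and Tmsb10 (1.02 ± 0.26). Their adjusted p-values lay between 0.0148 and 0.0406 (limma), and the named calls were kept in 14 to 16 of 22 alternatives for Lmna, S100a11, Myl12a and Pfn1. Pfn1 differed by 0.55 without Sham 1 and by 1.83 without Sham 2.

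Immediate early genes were the list with the most calls, 10 of 30 tested and none down (median 0.47). Zfp36, which encodes tristetraprolin, a protein that speeds the decay of AU-rich mRNAs, ranged from 104 to 227 in RM (median 199) and from 34.9 to 54.5 in plate C Sham (median 45.7), with 29.1, 58.2 and 81.4 on plate E. No Sham ROI reached the RM range, and the rise was 1.98 ± 0.25 (adjusted p = 1.98e-07). Of the AP-1 subunit genes, Junb rose by 1.79 ± 0.26, Fosl2 by 1.38 ± 0.24, Jun by 1.08 ± 0.29 and Jund by 0.89 ± 0.23, while Fosl1 (0.50) and Fosb (-0.01) were not called. The call of Junb was kept in 21 of 22 alternatives and that of Fosl2 in 20, but Jun was called in 13 and Jund in 15, and each of these 2 kept its call in 1 of the 6 fits that left out a well run. Junb ranged from 311 to 442 in RM and from 64.0 to 195 in plate C Sham, but the highest plate E Sham ROI read 407. The zinc finger factor gene Egr1 rose by 1.41 ± 0.28, Ier3 by 1.34 ± 0.23, the antiproliferative gene Btg1 by 1.24 ± 0.26, Zfp36l1 by 1.09 ± 0.24 and the survival gene Mcl1 by 1.002 ± 0.23. Ier3 was called in 21, Egr1 in 19, Btg1 and Zfp36l1 in 18 and Mcl1 in 17 of 22 alternatives. Atf3 (0.92, adjusted p = 0.26), Klf6 (0.81, adjusted p = 0.13), Dusp1 (0.63), Myc (0.44) and Nr4a1 (0.43) were not called.

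Among cytokine response genes 2 of 12 rose (median 0.50): the transcription factor gene Stat3 by 1.41 ± 0.25 and its target and inhibitor Socs3 by 1.49 ± 0.29 (adjusted p = 0.00025 and 0.00115). Socs3 ranged from 68.4 to 137 in RM and from 21.1 to 45.7 in plate C Sham, but the plate E Sham ROIs at 38.8, 87.2 and 93.1 overlapped RM. Cebpb (1.25, adjusted p = 0.059) and Cebpd (0.96, adjusted p = 0.082) came next, and Il6 differed by 0.20. Of 11 genes of p53, growth arrest and cell death, Gadd45a and Mcl1 rose. Gadd45a, a stress-induced growth arrest gene, ranged from 192 to 272 in RM and from 31.7 to 83.1 in plate C Sham, with 58.2, 77.5 and 105 on plate E, and rose by 1.80 ± 0.25 (adjusted p = 3.29e-06). Cdkn1a differed by 0.43 (adjusted p = 0.74). In the coagulation, fibrinolysis and complement list 0 of 8 genes were called (median 0.51), and in the glucocorticoid and circadian list 0 of 16 (median 0.25), with Bhlhe40 at 0.82 and Zbtb16 at 0.74.

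Metal-binding and antioxidant genes gave 8 rises of 21 tested (median 0.58). Mt2, a metallothionein, a small cysteine-rich protein that binds zinc and copper, had the lowest p of all genes. It ranged from 1057 to 2046 in RM (median 1431) and from 204 to 313 in plate C Sham (median 255), and read 268, 378 and 407 on plate E. Sham ROIs of both plates were far below RM, with a rise of 2.49 ± 0.28 (adjusted p = 1.1e-08). Mt1 rose by 0.93 ± 0.23 from 156 ± 45.9 (SD, n = 6) to 291 ± 45.7 (SD, n = 8). Mt1 was called in 16 of 22 alternatives and in 2 of the 6 fits that left out a well run. The ferritin light and heavy chain genes Ftl1 and Fth1, whose products store iron, rose by 1.58 ± 0.29 and 1.52 ± 0.29, and Cp, the copper-carrying ferroxidase ceruloplasmin, by 1.15 ± 0.30. Without Sham 1 the Fth1 difference was 0.999 and its call was lost, and the Ftl1 call was lost without RM 1 and without Sham 1. Cp was called in 14 of 22 alternatives and in 2 of the 6 fits that left out a well run, and lost its call without RM 1, without RM 2, without Sham 1 and without Sham 2. Plate E Sham ROIs of Ftl1 (77.5, 244 and 291) and Fth1 (291, 489 and 1018) overlapped the RM ranges (137 to 369 and 606 to 1303). Sqstm1, the autophagy receptor p62, rose by 1.85 ± 0.27, and the superoxide dismutase genes Sod1 and Sod2 by 1.18 ± 0.30 and 1.06 ± 0.26, with calls in 16 and 15 of 22 alternatives. Not called were Gclm (0.95, adjusted p = 0.16), Nqo1 (0.57), Tfrc (0.09) and the zinc exporter gene Slc30a1 (-0.69).

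Both metallothionein genes lie close to each other on chromosome 19 in the rat RefSeq table, which names the second Mt2A and gives Mt2 as a synonym (a synonym it also gives for a melatonin receptor gene). The 250 bases before each start are shown because both genes were called. They lie at chr19:10832976-10833225 for Mt1 and chr19:10838709-10838958 for Mt2A, both on the minus strand of GRCr8. Capitals mark the letters TGCNCNC (either strand, overlapping matches counted). They are a looser form of TGCRCNC (R is A or G), the core of the metal response element that the zinc sensor MTF1 binds. The marked GAGAGCA in Mt1 and GAGGGCA in Mt2A match only the looser letters.
Mt1: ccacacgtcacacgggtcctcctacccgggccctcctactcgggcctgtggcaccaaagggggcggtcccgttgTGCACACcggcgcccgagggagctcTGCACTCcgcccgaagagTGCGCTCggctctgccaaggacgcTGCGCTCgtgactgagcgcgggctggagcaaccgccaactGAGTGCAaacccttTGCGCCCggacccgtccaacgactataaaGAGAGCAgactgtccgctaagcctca
Mt2A: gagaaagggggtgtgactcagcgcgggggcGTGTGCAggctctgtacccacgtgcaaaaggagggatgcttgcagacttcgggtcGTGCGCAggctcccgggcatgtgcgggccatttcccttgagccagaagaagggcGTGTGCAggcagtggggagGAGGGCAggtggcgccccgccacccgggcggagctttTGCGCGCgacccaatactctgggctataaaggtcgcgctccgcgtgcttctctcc
Mt1 holds 7 matches to the looser letters, a number reached by 1 of 7022 promoters (0.0142%), Mt1 itself, and Mt2A 5, reached by 35 (0.498%). At least 1 match is common, in 54.2% of the 7022 and in 45 of the 82 risers with a promoter entry (54.9%).

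Protein folding genes were called in part. Of 18 heat shock genes tested 3 rose (median 0.29): Zfand2a, an arsenite- and heat-inducible zinc finger gene, by 1.66 ± 0.27 (adjusted p = 3.94e-05), Hspe1, the mitochondrial co-chaperonin, by 1.25 ± 0.31 and the Hsp40 gene Dnaja1 by 1.09 ± 0.25. Zfand2a ranged from 103 to 291 in RM and from 36.3 to 81.4 in plate C Sham, with 19.4, 29.1 and 34.9 on plate E. Hspe1 was called in 14 and Dnaja1 in 16 of 22 alternatives. Hspa1a differed by 1.16 (adjusted p = 0.19), Hsp90ab1 by 0.84 and Hspb1 by 0.43. The upstream 250 bases of Hspe1 (chr9:64084077-64084326) and Dnaja1 (chr5:60638154-60638403), both on the plus strand of GRCr8, are shown because each holds 1 heat shock element core (GAANNTTC, which reads the same on both strands), in capitals.
Hspe1: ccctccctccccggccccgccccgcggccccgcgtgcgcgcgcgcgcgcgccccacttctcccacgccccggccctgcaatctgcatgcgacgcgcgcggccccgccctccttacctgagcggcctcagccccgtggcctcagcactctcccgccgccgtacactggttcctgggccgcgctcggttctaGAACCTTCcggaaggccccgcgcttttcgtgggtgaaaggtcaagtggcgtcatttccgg
Dnaja1: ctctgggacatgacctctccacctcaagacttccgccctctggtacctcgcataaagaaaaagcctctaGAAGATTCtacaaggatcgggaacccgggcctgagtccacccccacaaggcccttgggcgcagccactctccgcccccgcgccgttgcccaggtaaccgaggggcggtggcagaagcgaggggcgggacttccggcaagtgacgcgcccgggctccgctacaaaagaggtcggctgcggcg
That core was found upstream of 4.59% of the 7022 tested genes and of 8 of 82 risers (9.76%), the AP-1 letters TGANTCA in 4.46% and 6.10%, and the antioxidant response letters TGACNNNGC in 12.0% and 20.7%. Zfand2a, called in all but the run-mean fit, holds no heat shock core in this window.

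In the unfolded protein and integrated stress list 2 of 15 genes rose (median 0.59): Atf4, its central transcription factor, by 1.49 ± 0.25 (adjusted p = 8.58e-05), and Manf, a secreted factor of the endoplasmic reticulum, by 1.25 ± 0.34 (adjusted p = 0.0417, called in 12 of 22 alternatives). Hspa5 differed by 1.13 (adjusted p = 0.12) and Ddit3 by 0.37. Of 17 oxidative phosphorylation genes the ATP synthase gene Atp5b rose (1.15 ± 0.30, adjusted p = 0.0288), but by 0.42 and without a call when the plate term was dropped. In the hypoxia and glycolysis list 0 of 18 were called (median 0.27), with Aldoa at 0.56 and Pgam1 at 0.51.

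Kidney injury markers had the highest median of the lists, 0.88, and 4 of 16 tested rose. Besides Spp1 and S100a11 these were clusterin (Clu), a secreted chaperone, and Havcr1, the tubular injury marker KIM-1. Clu ranged from 142 to 240 in RM and from 29.1 to 70.6 in plate C Sham, with 19.4, 69.8 and 116 on plate E, and rose by 1.90 ± 0.27 (adjusted p = 3.74e-06). Havcr1 ranged from 60.7 to 132 in RM and from 23.3 to 47.3 in plate C Sham and read 23.3, 29.1 and 58.2 on plate E, a rise of 1.47 ± 0.28 (adjusted p = 0.000722). Igfbp7 (1.52 ± 0.44) had all RM ROIs above all plate C Sham ROIs and an adjusted p of 0.075. Because Havcr1 and Clu are known from injured tubules, markers of neighbouring cells are given beside them. None of 18 proximal tubule markers was called (median 0.11), and their summed signal was 1144 to 2334 in RM, 1047 to 1599 in plate C Sham and 892 to 1687 in plate E Sham, and Gatm differed by 1.03 (adjusted p = 0.18). None of 12 later tubule markers (median -0.14; summed 485 to 743 in RM and 552 to 636 in plate C Sham), 9 leukocyte markers (median 0.10; 294 to 390.0 and 291 to 338) or 6 erythroid and muscle transcripts (median -0.20; 1425 to 4167 and 515 to 3759) was called, nor were the 15 mesangial and 8 parietal markers (medians 0.34 and 0.01). The part of neighbouring cells in the rises was not tested.

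**Figure D3:**
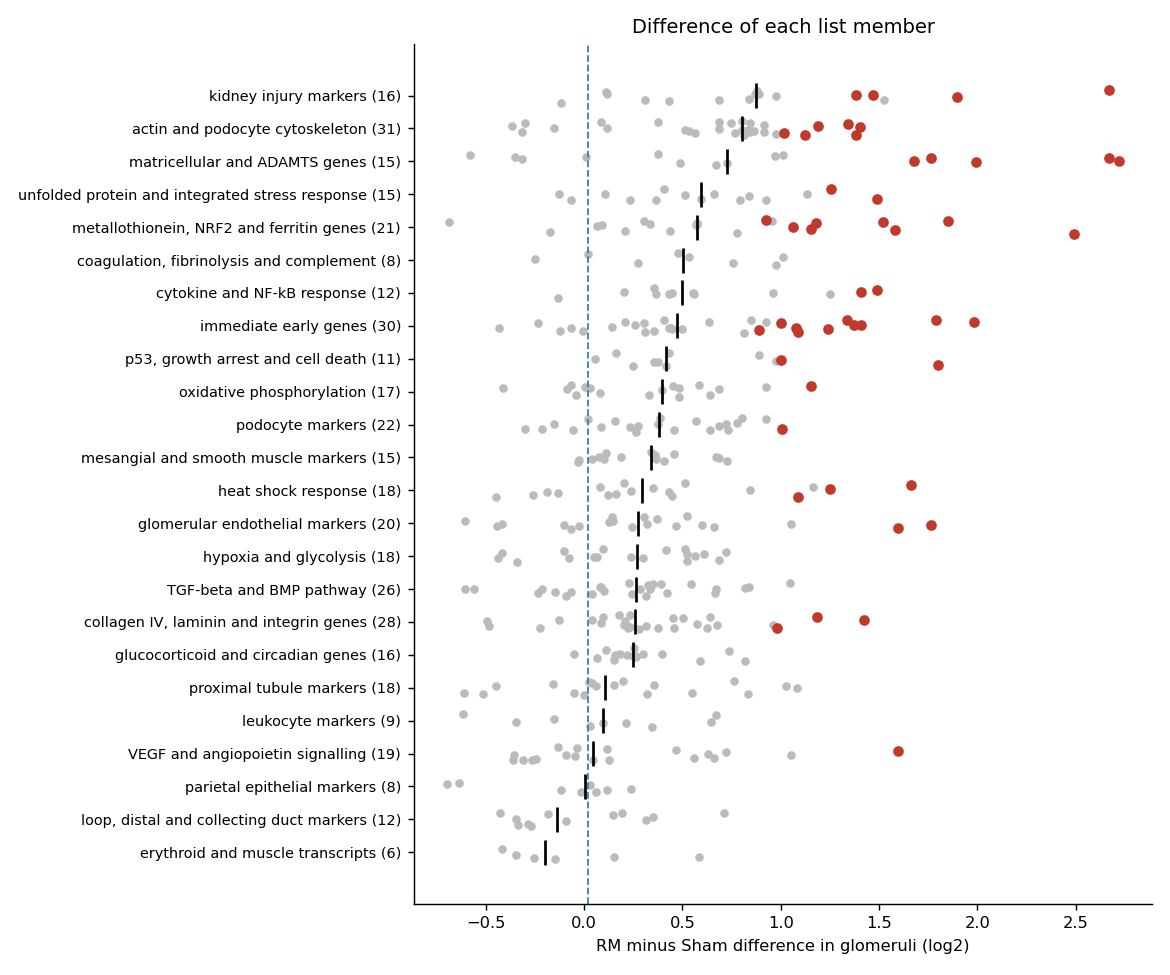
Each point is a gene of a list, with its RM minus Sham difference in glomeruli on the horizontal axis (log2) and the number of genes tested behind the list's name. Red points are called genes, black bars list medians (from -0.20 for erythroid and muscle transcripts to 0.88 for kidney injury markers), and the dashed line the median of all genes at 0.02.

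Other genes that rose belonged to no list. Among the 15 largest rises these were the predicted gene Gm13889 (1.84 ± 0.32) and Rnd1, a small GTPase that loosens actin adhesions (1.76 ± 0.28). Chosen after their values were seen, 3 further examples were Prg4, lubricin (1.45 ± 0.27), the tetraspanin gene Tspan7 (1.49 ± 0.32) and the polyubiquitin gene Ubb (1.27 ± 0.28), which ranged from 1763 to 2317 in RM and from 566 to 1127 in plate C Sham. Plate E Sham ROIs lay within the RM range for Prg4 (262, 268 and 271) and, for 1 of 3, Ubb (1832).

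Both falls had no overlap between RM and plate C Sham, as 14 genes (0.152%) did in that direction. Rgs19, a regulator of G protein signalling, ranged from 151 to 191 in RM (median 159) and from 233 to 622 in plate C Sham (median 459), a fall of 1.30 on the log2 scale (SE 0.26, adjusted p = 0.00186). The plate E Sham ROIs, at 58.2, 58.2 and 151, did not exceed the RM median. Without the plate term the difference was -0.52 and not called, and the call was also lost without Sham 1 and with the plate A ROI, which read 872. Capn5, a calpain protease gene, fell by 1.16 (SE 0.32, adjusted p = 0.0462) from 52.9 ± 9.91 (SD, n = 6) to 23.3 ± 4.60 (SD, n = 8), where the RM level is near that of the negative probe, and the call was lost in each of the 6 fits that left out a well run.

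The second question was whether RM changed glomeruli differently from the rest of the kidney. The RM minus Sham difference in glomeruli was set against its mean in cortex, corticomedullary junction and medulla, in a fit of all areas with a weight for each area's spread, in which the glomerular weight was 0.25 against 1.31 to 1.63 in the others. All areas shared 1 plate term in this fit. Its glomerular differences therefore also drew on the plate E Sham ROIs and need not equal those of the glomerular fit. Of 8799 genes 5 (0.0568%) differed, each with the higher value in glomeruli, and 2 of the 102 glomerular calls were among them. Some other fits also called genes lower in glomeruli, though fewer than higher. Quantile normalization called 88 higher and 50 lower, plate C ROIs alone 25 and 5, and a common spread for all areas 790 and 217. These ROI-level p-values are too small for the same reason, and with 1 mean per run and area 1 gene stayed below the threshold.

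Flt1 was 1 of the 5. Its RM minus Sham difference was 1.52 ± 0.33 in glomeruli but 0.07 ± 0.15 in cortex, 0.24 ± 0.14 for the junction and 0.46 ± 0.13 for medulla, and glomeruli exceeded the mean of the others by 1.26 ± 0.28 (limma, adjusted p = 0.0332). Irf2bpl, a transcriptional regulator gene, differed by 1.63 ± 0.34 in glomeruli and by 0.27 ± 0.15, 0.27 ± 0.15 and 0.27 ± 0.14 elsewhere (1.36 ± 0.30, adjusted p = 0.0278). Setbp1, which encodes a SET-binding protein, differed by 1.36 ± 0.30 in glomeruli and by 0.01, -0.01 and 0.11 elsewhere (adjusted p = 0.00257), and Cd81, a tetraspanin gene, by 1.10 ± 0.31 against 0.00, -0.18 and -0.02 (adjusted p = 0.0477). Neither Setbp1 (0.95, adjusted p = 0.067) nor Cd81 (0.99, adjusted p = 0.107) was called in glomeruli alone in the glomerular fit. Ppp1r1a, an inhibitor of protein phosphatase 1, had the largest difference between areas, 2.03 ± 0.29 (limma, adjusted p = 8.56e-07). It was of another kind, with a fall in medulla (-2.25 ± 0.14) and at the junction (-1.40 ± 0.15). In the separate glomerular fit Ppp1r1a differed by 0.71 and was not called. The calls of Flt1, Irf2bpl and Cd81 were lost when any of the 3 RM runs was left out, and also without Sham 1 and without Sham 2 (Flt1), without Sham 3 (Irf2bpl) and without Sham 1 and without Sham 3 (Cd81). That of Setbp1 was lost without RM 1, without RM 3 and without Sham 3. Ppp1r1a kept its call in all 13 alternatives.

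For the largest glomerular rises no difference between areas was called. Thbs1 differed by 2.59 ± 0.65 in glomeruli and, for cortex, junction and medulla, by 1.91 ± 0.29, 2.48 ± 0.28 and 2.26 ± 0.26 (difference between areas 0.38 ± 0.55, adjusted p = 0.988). Mt2 differed by 2.42, 2.11, 2.51 and 2.54 in the same order (0.03 ± 0.42) and Spp1 by 2.39, 3.12, 3.57 and 2.14 (-0.55 ± 0.66). Cemip2 differed by 1.95 ± 0.36 in glomeruli and by 0.90, 0.55 and 0.97 elsewhere, a difference of 1.14 ± 0.31 with an adjusted p of 0.135, and Col4a1 by 2.11 ± 0.47 and by 1.39, 0.98 and 1.21 (0.91 ± 0.40, adjusted p = 0.70). The focal adhesion gene Tns2 came next in order of p (1.35 ± 0.32, adjusted p = 0.074). No gene was called lower in glomeruli in this fit. The lowest p-values in that direction were those of Cldn7, Hmga1, Klf6, Myc, Rasd1 and G3bp1 (-0.96 to -1.30, adjusted p = 0.0848 to 0.174). Myc, for example, differed by 0.73 ± 0.41 in glomeruli and rose by 2.36 at the junction, by 2.04 in medulla and by 1.57 in cortex. These are not shown to be alike across areas, since the SE of the difference reached 0.66 for Spp1.

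**Figure D4:**
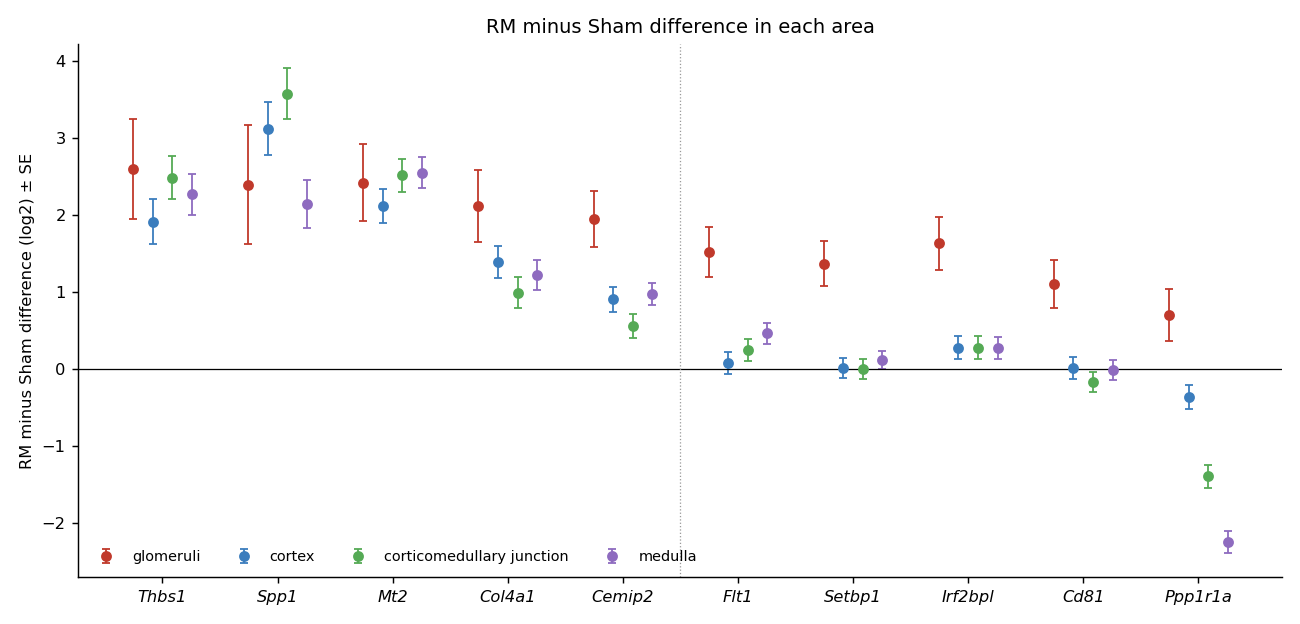
Points are RM minus Sham differences (log2) in glomeruli, cortex, corticomedullary junction and medulla, and bars 1 SE, from the fit of all areas. To the left of the dotted line are 5 genes that rose in glomeruli without a called difference between areas, to the right the 5 genes called between areas, of which Ppp1r1a differs through its fall in medulla (-2.25) and at the junction (-1.40).

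RM-HS glomeruli were set against RM glomeruli to ask what the added HS changed. A single gene of 9230 (0.0108%) was called, Rgs19, which was higher in RM-HS by 1.36 ± 0.26 (limma, adjusted p = 0.026, over 6 and 8 ROIs of which some share an animal), with RM-HS ROIs from 196 to 767 (median 540), all above the 8 RM ROIs. That call was lost in 9 of 16 alternatives, and with plate C ROIs only 1 gene was called higher and 11 lower in RM-HS. In the main limma fit 318 of the 9230 genes had an unadjusted p below 0.05, a share below the 0.05 that chance alone gives. RM-HS and RM glomeruli were both read against the same Sham ROIs, so their values are given side by side and not as independent evidence. The differences from Sham were 1.97 ± 0.36 in RM-HS and 2.72 in RM for Thbs1, 1.83 ± 0.41 and 2.67 for Spp1, 3.20 ± 0.30 and 2.49 for Mt2, 1.57 ± 0.27 and 1.98 for Zfp36, 1.27 ± 0.30 and 1.60 for Flt1, 1.40 ± 0.28 and 1.76 for Cemip2, and 0.73 ± 0.31 and 1.43 for Col4a1. In HS, whose 5 glomerular ROIs were all on plate E beside 3 Sham ROIs, the ROIs were widely spread. Thbs1 (median 128) read 717 and 803 in run HS 3 and 77.5 to 128 in the other runs. Mt2 was split in the same way, at 1880 and 2466 against 442 to 523. Flt1 ran from 34.9 to 134 (median 116), and its HS 3 values of 116 and 134 overlapped the other runs.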

How the data were processed

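Signal was measured with GeoMx mouse whole-transcriptome probes on rat kidney. The authors deposited 1 table of 9271 genes and 1 negative probe in 132 ROIs, whose signal was scaled to a 75th percentile of 58.2 in each ROI; the submitters' processing notes name the human builds GRCh38 and hg38, with no software named. The deposited signal of each ROI was a multiple of whole reads (100% of values within 1e-04 in all 132 ROIs), which served the tests on counts. No value was 0, and 0 of 378 pairs of glomerular ROIs were identical (highest correlation 0.743). The number of reads and of ROIs limits the precision, and the replicate is the ROI, not the animal.

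A gene was kept if 10% or more of the 28 glomerular ROIs read over 2 times the negative probe (9230, 41 left out). On log2(signal + 1), limma 3.58.1 (R 4.3.3, statmod 1.5.0) fitted 4 group means and the plate, treating well runs as random blocks (within-run correlation 0.0162) and moderated variances with a trend. Over all areas the fit had 16 means, 1 plate term shared by the areas, a weight per area and a block correlation of 0.213. edgeR 4.0.16 and DESeq2 1.42.0 on the recovered reads were alternatives, as were other filters, pseudocounts, normalizations and runs left out. The glomerular limma fit and edgeR were also run on simulated reads with known changes. The simulated ROIs were independent, with no run, plate or animal effect, so the sharing of animals was not tested. The genes named are the 15 largest rises and 10 largest falls called, Thbs1, Col4a1, Cemip2 and Flt1, up to 4 called members of each list (or the 2 lowest p), the 6 lowest p each way between areas and the 5 largest calls each way in RM-HS; other list members show the rest of a list and were chosen after their values were seen. The comparison, gene lists and markers were chosen with earlier results of these data known. Of the 9230 tested symbols 8394 are rat RefSeq symbols (GRCr8), and upstream sequences come from RefSeq. Some results of the naming rule are not reported here.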

Additional observations from a re-analysis of the deposited data

Results flagged for a closer look

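In 6 of 38 groups tested (19 genes in the RM and the plate C Sham ROIs), 1 ROI stood apart from the rest of its group, where chance alone gives about 1 in 20. In RM these were the lowest ROI of Gm13889 (47.9), the highest of Rnd1 (349) and the lowest of Capn5 (12.9). In plate C Sham they were the lowest ROI of Gadd45a (31.7), the lowest of Cemip2 (84.6) and the highest of Col4a1 (170.3). Each lay on its own group's side of the other group.

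The RM minus Sham difference was larger in glomeruli than in the mean of the other areas by a test of that difference for 5 genes: Ppp1r1a (2.03), Setbp1 (1.33), Irf2bpl (1.36), Flt1 (1.26) and Cd81 (1.16), all log2.

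The RM ROI of plate A entered only the alternative fits that added it. In it 60 of the 100 called rises were above the highest plate C Sham ROI, as were 1530 of all 9230 genes (16.6%). The rises were called against those same Sham ROIs, so the count describes this ROI and is no independent support. Inhbb (32.3) and Ccn2 (25.8) were among those that were not above the highest plate C Sham ROI.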

How the results depend on the processing

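For RM minus Sham in glomeruli (102 calls), the count was 394 with plate C ROIs only, 353 with RM and Sham ROIs only, 260 with array weights, 1160 in a fit over all areas, 228 in edgeR, 209 in DESeq2 and 0 with 1 mean per well run. Leaving out a run gave 22 to 95. Between areas (5 calls) the count was 138 under quantile normalization (88 higher and 50 lower in glomeruli), 30 with plate C only (25 and 5), 12 without the random block (11 and 1), 1007 with a common spread (790 and 217), 1 with run means, and 1 to 11 with a run left out. For RM-HS minus RM (1 call) it was 0 with the negative probe subtracted, 0 without the plate term, 0 with run means, 0 with the plate A ROI, 12 with plate C only (1 higher and 11 lower in RM-HS), 4 with array weights (1 and 3), and 0 to 1 with a run left out. No named difference reversed. Of the 102 calls, 64 were among the 105 without the plate term, 101 among edgeR's and 88 among DESeq2's. The causes were not tested. No paired analysis was possible because the replicate numbers follow well order and pair no ROIs across groups. Plate E Sham ROIs, with 17894 to 41933 reads, limit what that plate adds.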
